A study of Mus musculus with 36 samples.

Results

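Neurons release transmitter from synaptic vesicles, and 35 genes of that machinery were followed across the treated and untreated cultures. The genes were taken by symbol and had to exceed a mean of 5 counts over the 36 libraries, which all 35 did. They are part of the 20355 genes tested, from a table of 55492 entries. The genes code for 7 vesicle proteins, 5 synaptotagmins, 9 SNARE proteins or their regulators, 8 proteins of the active zone and priming, 2 vesicular glutamate transporters and 4 proteins of endocytosis.

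The cultures were grown from purchased cells (C57EDCX) of mouse cortex, taken at embryonic day 18 and dissociated, with no sorting of cell types described. Controls received only fresh medium for 72 h. DEX cultures received the glucocorticoid receptor agonist dexamethasone at 1 µM over the same time, and DEX + RU-486 cultures received it together with the receptor's antagonist mifepristone, also at 1 µM. Each group had 12 libraries, with 6 in each of 2 batches named in the labels. The comparisons ask whether glucocorticoid exposure moves the mRNA of these genes and whether RU-486 alters that.

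A vesicle is filled with transmitter by a transporter, held in the reserve pool by synapsins, docked and primed at the active zone by proteins such as Bassoon, Piccolo, RIM and Munc13, and fused by the SNARE proteins when a synaptotagmin binds calcium. NSF and its SNAP partners take the SNARE complex apart afterwards, and dynamin, amphiphysin, endophilin and synaptojanin retrieve the membrane. Cortical projection neurons use VGLUT1 (Slc17a7) and VGLUT2 (Slc17a6) to load glutamate.

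RNA integrity and depth moved with the treatment in batch 1. There the RNA integrity number (RIN) was 7.8 to 9.2 in control, 3.9 to 7.8 in DEX and 5.6 to 7.9 in DEX + RU-486 libraries. The total counts ran from 24.2 to 82.4 M in control, from 12.1 to 22.3 M in DEX and from 17.4 to 26.7 M in DEX + RU-486. In batch 2 each group had 2 libraries with a RIN under 3 and 4 with a RIN of 6 or above. These 6 degraded libraries stood apart, so batch 2 is given with and without them, and in batch 1 treatment, RIN and depth cannot be told apart. Levels are given in CPM, which are counts scaled to each library's total after that total was adjusted by the library's TMM factor. Neuronal markers outside the vesicle cycle summed to between 5838 and 7126 CPM in batch 1 control libraries. In the same libraries oligodendrocyte lineage markers summed to between 73.0 and 311 CPM, and microglial markers to at most 0.947 CPM. Of 9 known targets of the glucocorticoid receptor, 4 were higher in DEX (8.99% of all tested genes) and 3 in DEX + RU-486 (6.92%) in batch 1, among them Dusp1 with log2 fold changes of 1.52 and 1.23, and none in batch 2.

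Levels of the 35 genes covered a wide range. Per kilobase of exon, Vamp2, the main vesicle SNARE of the forebrain, stood highest with a median of 83.5 CPM per kb over the 12 control libraries, followed by Rab3a (74.5), Cplx2 (61.9), Syn1 (61.4) and Syt4 (54.1). The range of Vamp2 overlapped those of the other 4, so their order is not fixed beyond the spread between libraries. At the low end were Sv2c (0.615), Vamp1 (0.487) and Unc13c (0.177 CPM per kb). The balance of forms differed between gene families. Bsn made up 53.8% to 60.9% of the summed Bassoon and Piccolo level per kb in batch 1 control libraries, and Cplx1 33.1% to 43.9% of the complexins. Vamp1 made up between 0.247% and 0.601% of the summed Vamp1 and Vamp2 level per kb in batch 1 control libraries, and Sv2a between 79.1% and 85.7% of the SV2 family. Slc17a6 took 24.01% to 54.3% of the summed VGLUT1 and VGLUT2 level per kb in batch 1 control libraries, and 76.3% to 81.7% in the 4 control libraries of batch 2 with intact RNA.

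**Figure D1:**
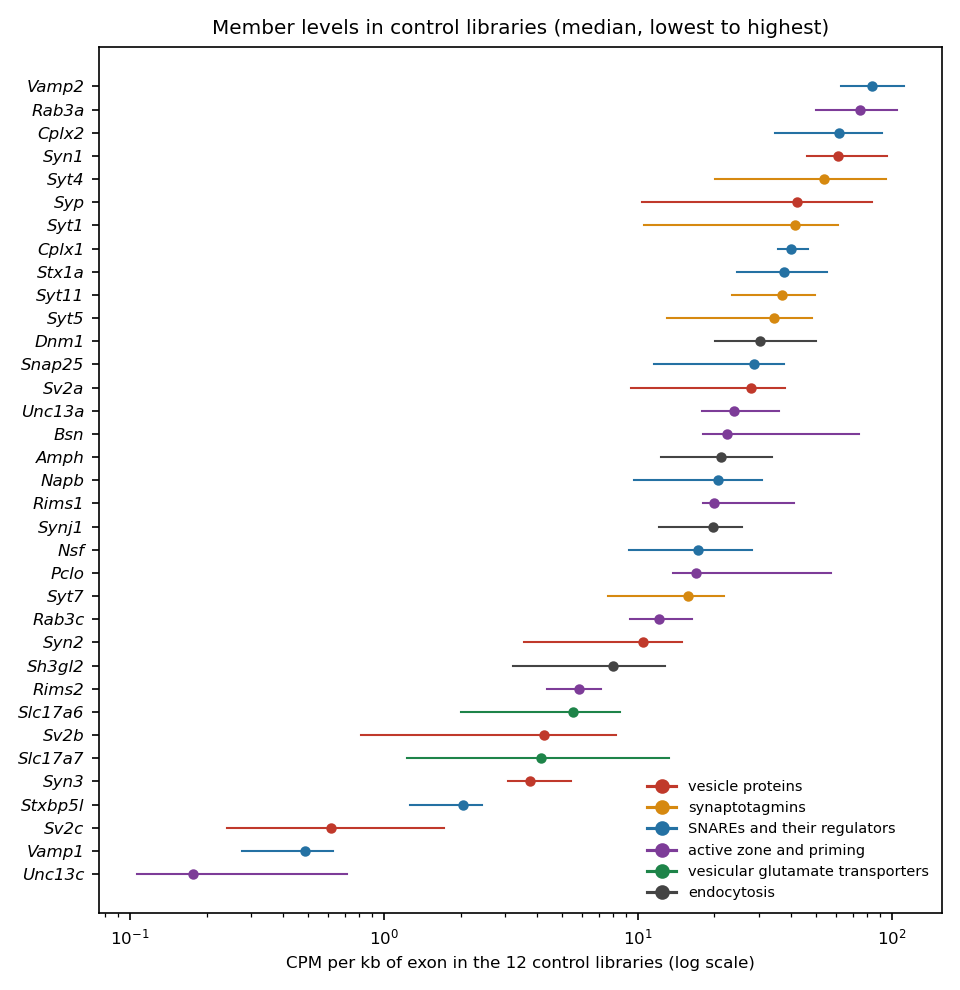
Level of each gene in the 12 control libraries, in CPM per kb of exon on a log axis, with the median as a point, the lowest to highest library as a line, and the role as the colour. The medians run from 0.177 for Unc13c to 83.5 for Vamp2.

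The sequence around a listed start is shown for 4 genes that the results turn on: Nsf and Stx1a, whose DEX and control libraries did not overlap in batch 1, Syt1, the calcium sensor of fast release, and Sv2c, the gene that was higher. RefSeq promoters of GRCm38.p6 (250 bases before to 50 after a start) were matched by symbol for 28 of the 35 genes. Capitals mark TGACG (the core of the cAMP response element) in Stx1a, ACANNNTGT (a loose core of the glucocorticoid receptor palindrome) in Syt1, and CAGCACC (the start of the RE1 element that silences neuronal genes elsewhere) in Sv2c, and Nsf holds none of these. The windows are Stx1a at chr5:135023232-135023531 (plus strand), Nsf at chr11:103954007-103954306 (minus strand), an alternative start of Syt1 at chr10:109009062-109009361 (minus strand) and Sv2c at chr13:96132528-96132827 (minus strand). The Syt1 window lies inside the gene and is shown because it holds the match, while the entry at the gene start (chr10:109010926-109011225) has 0 matches.
Stx1a: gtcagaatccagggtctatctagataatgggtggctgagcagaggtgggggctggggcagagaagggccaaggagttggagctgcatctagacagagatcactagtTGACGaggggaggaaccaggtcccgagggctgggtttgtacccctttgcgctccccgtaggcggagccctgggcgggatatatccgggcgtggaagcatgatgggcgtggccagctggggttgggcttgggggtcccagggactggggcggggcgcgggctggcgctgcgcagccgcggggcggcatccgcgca
Nsf: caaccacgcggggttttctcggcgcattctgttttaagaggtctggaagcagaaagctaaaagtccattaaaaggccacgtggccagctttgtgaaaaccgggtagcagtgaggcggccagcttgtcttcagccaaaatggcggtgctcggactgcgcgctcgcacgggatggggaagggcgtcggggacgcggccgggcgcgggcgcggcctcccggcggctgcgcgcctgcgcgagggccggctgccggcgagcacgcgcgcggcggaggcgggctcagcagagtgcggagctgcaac
Syt1: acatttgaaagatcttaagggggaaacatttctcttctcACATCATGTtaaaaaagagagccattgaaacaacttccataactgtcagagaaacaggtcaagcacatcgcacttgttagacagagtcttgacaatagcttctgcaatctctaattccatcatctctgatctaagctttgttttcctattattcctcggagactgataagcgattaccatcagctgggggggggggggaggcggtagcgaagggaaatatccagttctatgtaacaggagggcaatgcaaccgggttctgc
Sv2c: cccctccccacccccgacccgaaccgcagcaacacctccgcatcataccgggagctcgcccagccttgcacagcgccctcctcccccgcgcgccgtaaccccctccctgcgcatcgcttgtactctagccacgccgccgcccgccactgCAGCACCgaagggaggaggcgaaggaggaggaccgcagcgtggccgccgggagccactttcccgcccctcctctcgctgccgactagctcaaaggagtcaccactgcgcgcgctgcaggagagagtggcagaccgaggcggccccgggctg
Counted from the start listed for each window, the match begins at -144 in Stx1a, -211 in Syt1 and -101 in Sv2c.

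Both strands were searched in all 32851 promoters, where an entry can be an alternative start. The shares count entries, while a gene counts if any of its entries holds the match. A gene with several entries thus has more chances, and the gene counts are not on the scale of the shares. TGACG was in 20.8% of all promoters and in those of 8 of the 28 genes, namely Cplx1, Rab3a, Sh3gl2, Slc17a6, Stx1a, Syn1, Synj1 and Unc13a. The full element TGACGTCA, which contains TGACG, was in 1.79% of all promoters and in Sh3gl2 and Syn1. ACANNNTGT was in 6.85% and in Sv2b, Syt1 and Syt11, while the full receptor palindrome, of which ACANNNTGT is the middle, was in 0.00913% and in 0 of the 28. CAGCACC was in 7.14% and in Sv2c, Syn1 and Unc13a. The 28 genes' promoters had a median GC content of 61.2%, against 52.7% over all promoters.

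In batch 1, 15 of the 35 genes were lower in DEX than in control libraries and 1 was higher, at an adjusted p under 0.05 (quasi-likelihood test of edgeR, Benjamini-Hochberg). Of all tested genes, 9.99% were lower and 8.99% higher in the same comparison. The median log2 fold change of the 35 genes was -0.33, against 0.058 over all tested genes, and 26 of the 35 were negative. The 15 held 2 vesicle proteins, 2 synaptotagmins, 4 SNARE proteins or regulators, both glutamate transporters and all 4 endocytosis genes. Of the 8 genes listed under active zone and priming 1 was among them, Rab3a, a share near that of all tested genes. The DEX and control libraries did not overlap for 5 genes, which were Syn2, Syt7, Stx1a, Nsf and Napb, where 6.66% of all tested genes were lower without overlap. Exons of Syn1, Syn2, Syn3, Rab3a and Unc13a overlap exons of a protein-coding gene on the other strand, and whether the counting used strand is not given in the sources used here. The p-values take libraries as replicates and measure only the spread between them, which may be partly technical.

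The counts moved with the libraries used. Leaving out 1 library at a time, 7 of the 16 calls were lost at least once, those of Dnm1, Sh3gl2, Syp, Slc17a6, Slc17a7, Snap25 and Sv2c. Of the 7, all but Sv2c were also lost without a library of higher RIN, and 11 genes were lower without control replicate 2 (RIN 8.9), DEX replicate 8 (RIN 7.2) or DEX replicate 10 (RIN 7.3). The calls over all tested genes, in either direction, went from 19% to 13.5%, 16.7% and 15.9% in the same fits. Syp lost its call in 11 of 22 alternatives. Without the DEX library with a RIN of 3.9 (replicate 12), 9 genes were lower and 0 higher, all 7 of those calls were lost, and 14.9% of all tested genes were called. With only the libraries of RIN 6 or above, 10 were lower and 1 higher, against 9.72% and 9.26% of all tested genes. With RIN as a covariate, which runs with the treatment here, 1 was lower and 0 higher, against 1.77% and 1% of all tested genes. That gene was Pclo (log2 fold change -0.79, SE 0.11, adjusted p = 0.00258 by edgeR), which is named after its values were seen and which was at 0.040 without the covariate. The median log2 fold change of the 35 genes was -0.28 with the covariate, with 28 negative, against -0.33 and 26 without it. At an unadjusted p under 0.05, 10 were lower with the covariate and 0 higher, against 9.58% and 9.74% of all tested genes.

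**Figure D2:**
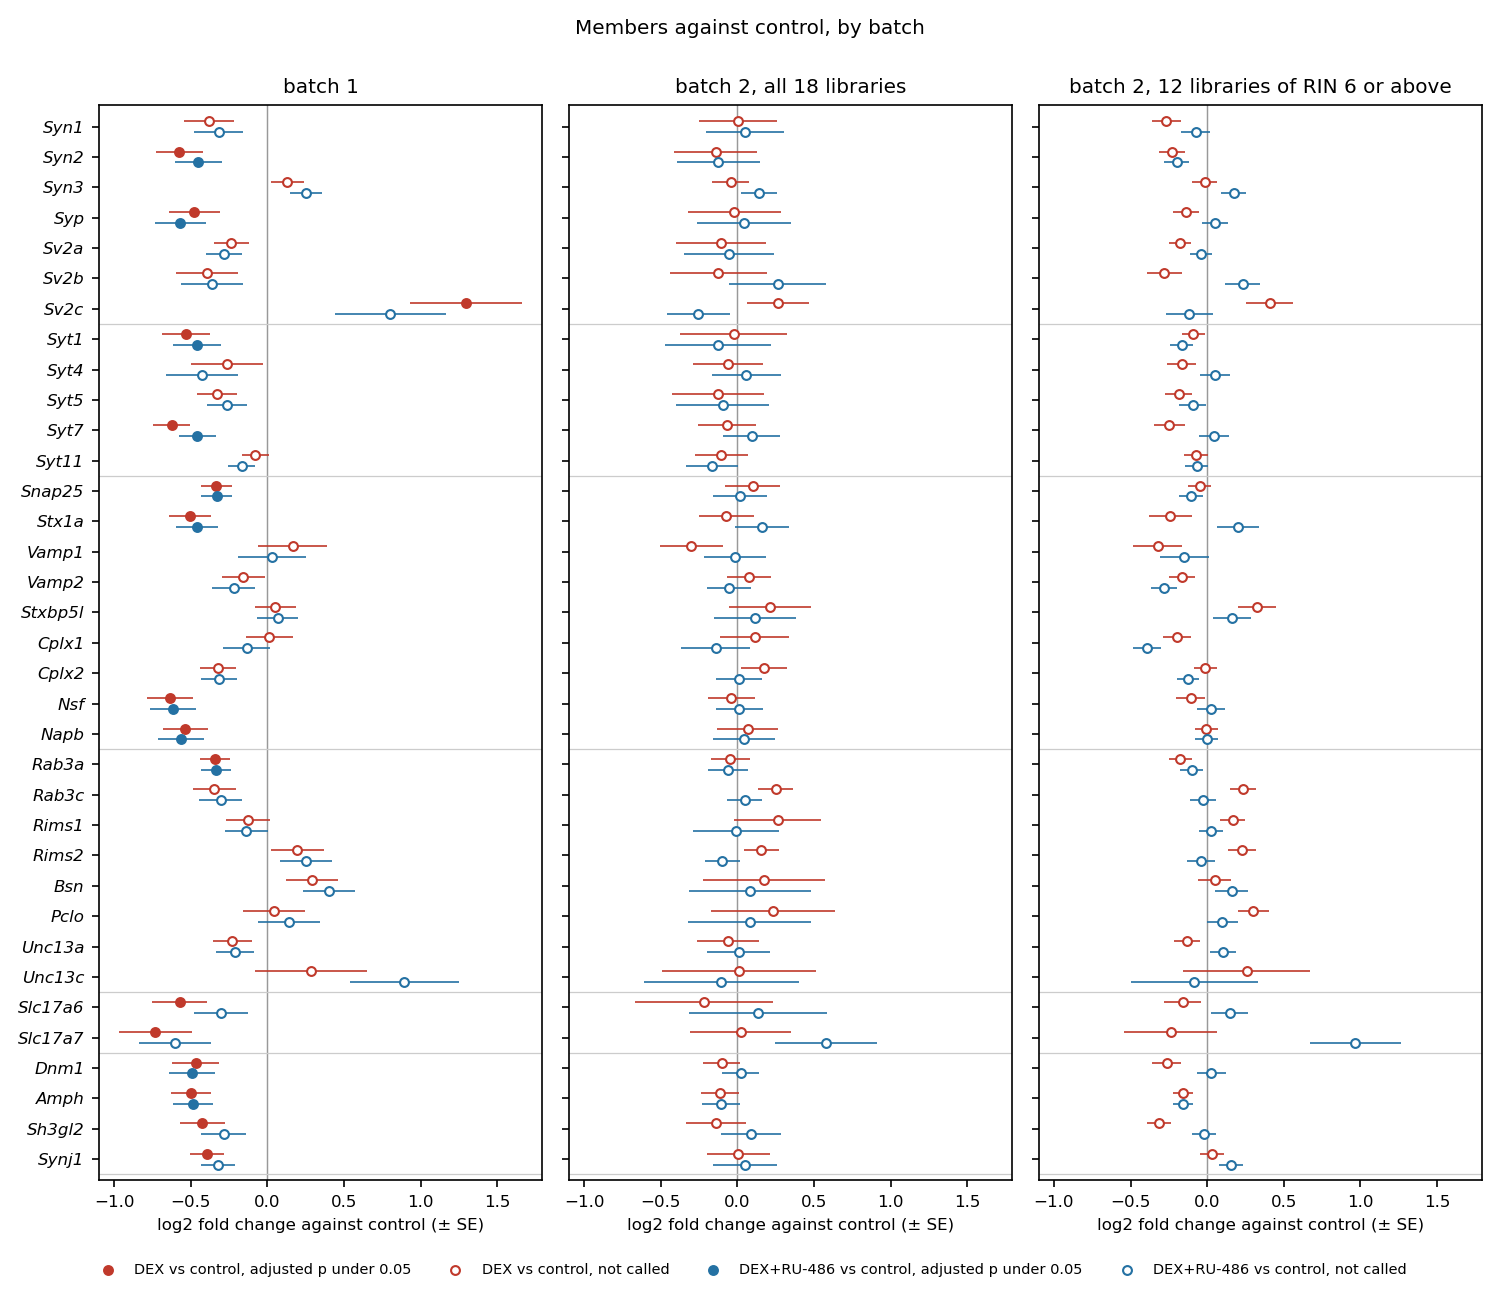
Log2 fold change against control (± SE) of each gene in DEX and DEX + RU-486, in batch 1, in batch 2 and in the 12 intact libraries of batch 2 (RIN 6 or above), with filled points at an adjusted p under 0.05. In batch 1, 15 genes are filled on the lower side in DEX, and in both batch 2 panels 0 are filled.

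Of the vesicle proteins, Syn2 and Syp were lower in DEX in batch 1 and Sv2c was higher. Syn2, which codes for synapsin II (a tether of reserve vesicles; chr6:115134902-115282006), had between 74.4 and 105 CPM in control (median 85.8), 44.1 to 68.2 in DEX (median 58.1) and 42.2 to 90.3 in DEX + RU-486 (median 59.3). All 6 DEX libraries lay below the lowest control, a log2 change of -0.58 (SE 0.15, adjusted p = 0.0116 by edgeR). Syp, the gene of synaptophysin, a major membrane protein of the vesicle, ranged from 247 to 436 CPM in control (median 276) and from 152 to 259.9 in DEX (median 218), with some overlap and a log2 change of -0.48 (SE 0.17, adjusted p = 0.0491). Syn1, the gene of synapsin I, went from 192 to 314 CPM in control to 114 to 235 in DEX, and its log2 fold change of -0.38 (SE 0.16) did not pass (adjusted p = 0.104). Syn3 was at 0.13, Sv2a at -0.24 and Sv2b at -0.39 log2, and these also did not pass.

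Sv2c codes for the SV2 form that is sparse in cortex and abundant in the basal ganglia. The gene lies at chr13:95954594-96132577. In batch 1 it had 2.33 to 5.99 CPM in control (median 4.99), 4.83 to 21.5 in DEX (median 7.26) and 5.39 to 13.7 in DEX + RU-486 (median 5.72). The groups overlapped, and the high values came from the DEX libraries with RIN 6.2 (21.5 CPM) and 3.9 (19.5 CPM). On the log2 scale it was 1.30 above control (SE 0.37, adjusted p = 0.0166 by edgeR) in DEX and 0.80 (SE 0.36, adjusted p = 0.139) in DEX + RU-486. With RIN as a covariate the DEX value was -0.032. Of the summed SV2 level per kb, Sv2c took 0.635% to 1.46% in control, 1.54% to 7.26% in DEX and 1.49% to 5.84% in DEX + RU-486, so both treated groups lay above control in that share, which was not tested.

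Among the synaptotagmins, Syt1 and Syt7 were lower in DEX in batch 1. Syt7, the sensor of slow and asynchronous release (chr19:10389090-10453180), had 127 to 163 CPM in control (median 147), 75.7 to 116 in DEX (median 88.2) and 86.7 to 140 in DEX + RU-486 (median 100.2). The DEX libraries lay wholly below control, at a log2 change of -0.62 (SE 0.12, adjusted p = 0.00171 by edgeR), the smallest adjusted p among the 35 genes. Syt1 (chr10:108497650-109010982) had 363 to 509 CPM in control (median 436), 179.9 to 399 in DEX (median 291) and 198 to 375 in DEX + RU-486 (median 322). With 1 DEX library inside the control range, it stood at -0.53 log2 (SE 0.16, adjusted p = 0.0214). Syt4 was at -0.26, Syt5 at -0.33 and Syt11 at -0.079 log2, and they did not pass.

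**Figure D3:**
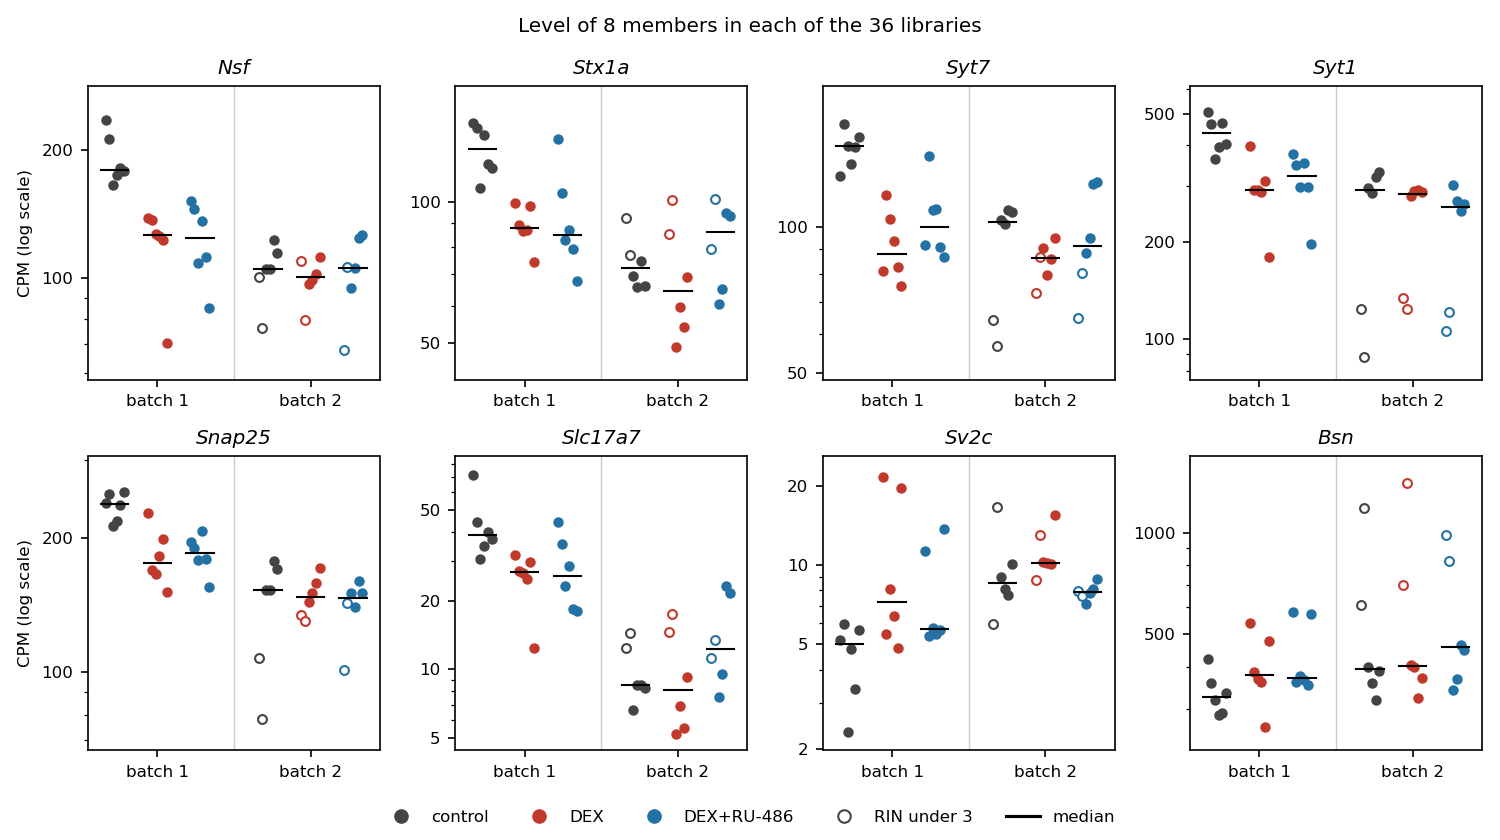
CPM of 8 genes in each of the 36 libraries on a log axis, by batch and treatment, with medians as lines and open circles for libraries with a RIN under 3. In batch 1 the DEX libraries of Nsf, Stx1a and Syt7 lie below all control libraries, and in batch 2 the open circles lie low for Syt1 and high for Bsn.

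Of the SNARE genes and their regulators, Snap25, Stx1a, Nsf and Napb were lower in DEX in batch 1. Nsf, the ATPase that takes SNARE complexes apart (chr11:103821782-103954056), had 166 to 235 CPM in control (median 179.7), 70.3 to 139 in DEX (median 126) and 85.3 to 152 in DEX + RU-486 (median 124). Both treated groups lay below every control library, with a log2 change of -0.64 (SE 0.15, adjusted p = 0.00642 by edgeR) in DEX. Napb, which codes for beta-SNAP, the brain form of the adaptor that brings NSF to the complex, had 159 to 217 CPM in control (median 189) and 78.2 to 150.1 in DEX (median 133), again without overlap, and a log2 change of -0.54 (SE 0.15, adjusted p = 0.015). Stx1a, syntaxin 1A of the plasma membrane (chr5:135023482-135051100), fell from 107 to 148 CPM (median 130.2) to 74.6 to 99.7 (median 88.2), a log2 change of -0.51 (SE 0.14, adjusted p = 0.0125).

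Snap25, the other plasma membrane SNARE (chr2:136713453-136782428), had 213 to 254 CPM in control (median 238), 151 to 228 in DEX (median 176) and 155 to 207 in DEX + RU-486 (median 185). DEX overlapped control in 1 library and DEX + RU-486 did not overlap it, and the DEX log2 fold change was -0.33 (SE 0.10, adjusted p = 0.027 by edgeR). The vesicle SNAREs Vamp1 and Vamp2 were at 0.16 and -0.16 log2 and did not pass. The complexins, which clamp the assembled complex, were at 0.012 (Cplx1) and -0.33 (Cplx2, adjusted p = 0.0557), and Stxbp5l, a tomosyn that competes with vesicle SNAREs, was at 0.052.

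Of the 8 active zone and priming genes 1, Rab3a, was called in batch 1, where 9.99% of all tested genes were lower. The median log2 fold change of the 8 in DEX was -0.043. Rab3a, the GTPase that carries vesicles to the release site (chr8:70754679-70758677), had 172 to 233 CPM in control (median 209), 141 to 182 in DEX (median 161) and 129.9 to 179.6 in DEX + RU-486 (median 165). The highest DEX library lay inside the control range, with a DEX log2 change of -0.34 (SE 0.099, adjusted p = 0.0194 by edgeR). Bsn, which codes for the scaffold Bassoon (chr9:108096022-108190384), had 286 to 422 CPM in control (median 326) and 265 to 539 in DEX (median 377). Its groups overlapped and its log2 fold change of 0.29 (SE 0.17) did not pass (adjusted p = 0.239). Rims2, a RIM that links vesicles to calcium channels, had 45.4 to 58.1 CPM in control and 46.6 to 104 in DEX. The value of 104 was the library with a RIN of 3.9, the log2 fold change was 0.20 (adjusted p = 0.459), and it was -0.031 in the libraries of RIN 6 or above. The remaining active zone genes were at -0.35 (Rab3c), -0.13 (Rims1), 0.040 (Pclo), -0.23 (Unc13a) and 0.28 (Unc13c) log2, and none of these passed.

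Both vesicular glutamate transporters were lower in DEX in batch 1. Slc17a7 (VGLUT1, chr7:45163949-45176142) had 30.4 to 71.6 CPM in control (median 38.7), 12.4 to 31.8 in DEX (median 26.7) and 18.0 to 44.2 in DEX + RU-486 (median 25.8). This was the largest negative DEX value of the 35 genes in batch 1, at -0.73 log2 (SE 0.24, adjusted p = 0.0339 by edgeR), although the groups overlapped. Slc17a6 (VGLUT2, chr7:51622006-51671119) had 22.6 to 45.9 CPM in control (median 38.8), 17.5 to 28.95 in DEX (median 26.2) and 20.8 to 39.2 in DEX + RU-486 (median 30.7), and a DEX log2 change of -0.57 (SE 0.18, adjusted p = 0.0268), again with overlap. Neither was called by edgeR when only the libraries of RIN 6 or above were used, where Slc17a7 had an adjusted p of 0.0561 and Slc17a6 of 0.0536. Over 22 alternatives, that one included, the DEX value ran from -0.84 to -0.47 log2 for Slc17a7 and from -0.70 to -0.047 for Slc17a6.

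All 4 endocytosis genes were lower in DEX in batch 1. Amph, the gene of amphiphysin, which bends the membrane and recruits dynamin (chr13:18948205-19150921), had 102 to 152 CPM in control (median 119.9), 77.4 to 106 in DEX (median 85.3) and 70.5 to 122 in DEX + RU-486 (median 85.8), a DEX log2 change of -0.50 (SE 0.13, adjusted p = 0.0106 by edgeR). Synj1, the phosphatase synaptojanin 1 that uncoats vesicles (chr16:90936092-91011308), had 159 to 207 CPM in control (median 173) and 105 to 170.4 in DEX (median 126), and was at -0.39 (SE 0.11, adjusted p = 0.0177). In both genes 1 DEX library reached into the control range. Dnm1, the gene of the scission GTPase dynamin 1, was at -0.47 (adjusted p = 0.0348) and Sh3gl2, the gene of endophilin A1, at -0.43 (adjusted p = 0.0463).

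With RU-486 added to DEX, 11 genes were lower than control in batch 1 and 0 higher, where 8.46% of all tested genes were lower and 6.92% higher. They were Syn2, Syp, Syt1, Syt7, Snap25, Stx1a, Nsf, Napb, Rab3a, Dnm1 and Amph, and the median of the 35 genes was -0.31 log2, against 0.053 over all tested genes. This comparison uses the same control libraries as that of DEX, so the values are given side by side and are not independent. Nsf was at -0.62 in DEX + RU-486 and -0.64 in DEX, Napb at -0.56 and -0.54, Snap25 at -0.33 and -0.33, and Rab3a at -0.34 and -0.34. For Syt7 the values were -0.46 and -0.62, for Slc17a6 -0.31 and -0.57, and for Slc17a7 -0.61 and -0.73.

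The direct comparison of DEX + RU-486 with DEX called 0 of the 35 genes in batch 1, and 0 of all tested genes (0%), by edgeR, and DESeq2 also called 0 of the 35. At an unadjusted p under 0.05, 0 of the 35 were called there as well, beside 1.77% higher and 2.32% lower among all tested genes. The log2 differences ran from -0.50 to 0.61 with a median of 0.021. For Nsf the difference was 0.021 (SE 0.15) and for Snap25 0.0010 (SE 0.10), and for Syt7 it was 0.17 (SE 0.12). The count of 11 against control moved with the libraries: it was 4 without control replicate 2, DEX + RU-486 replicate 15 or DEX + RU-486 replicate 18, and 5 without DEX + RU-486 replicate 17. Over all tested genes, calls in either direction went from 15.4% to 9.07%, 10.9%, 9.44% and 11.7% in these fits. The count was 6 with the libraries of RIN 6 or above, where 7.1% of all tested genes were lower and 6.36% higher. It was 1 (Pclo, -0.49 log2) with RIN as a covariate, where 1.79% were lower and 0.806% higher. The median of the 35 genes was -0.23 log2 with the covariate, with 27 negative, against -0.31 and 27 without it. At an unadjusted p under 0.05, 12 were lower with the covariate and 0 higher, against 10.5% and 9.19% of all tested genes.

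In batch 2 none of the 35 genes was called in any of the 3 comparisons, and neither was any of the tested genes (0% in each direction), by edgeR, and DESeq2 likewise called 0. At an unadjusted p under 0.05, Rab3c alone was higher in DEX and 0 were lower, beside 1.12% and 1.07% of all tested genes. In DEX + RU-486, 0 were above DEX and 2 below it (1.13% and 1.05% of all tested genes), and 0 differed from control (0.472% higher and 0.423% lower). Rab3c was at 0.25 log2, and those lower in DEX + RU-486 were Sv2c and Rims2, all named after their values were seen. Median log2 fold changes of the 35 were -0.024, 0.016 and 0.018 in these comparisons. Several genes were also lower in the intact control libraries of batch 2 than in the batch 1 controls, while others, such as Sv2c and Rims2, were higher. Nsf had 105 to 123 CPM there, Syt1 284 to 330, Snap25 152.5 to 177 and Slc17a7 6.62 to 8.58. The 2 degraded controls had 100.5 and 76.6 CPM of Nsf, 124 and 88.1 of Syt1, 107.5 and 78.1 of Snap25, and 12.4 and 14.5 of Slc17a7.

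In the intact libraries of batch 2, of the 35 genes, 0 were called in DEX against control (0.329% higher and 0.236% lower among all tested genes), the smallest adjusted p was 0.0698 for Sh3gl2 (log2 fold change -0.31), and the median was -0.14 against 0.0060 over all genes. At an unadjusted p under 0.05, 11 were lower and 5 higher, where 8.61% and 8.58% of all tested genes were. Sh3gl2, given by library after its values were seen, had 46.5, 46.2, 47.6 and 50.5 CPM in the 4 control libraries and 34.3, 35.96, 40.9 and 40.8 in the 4 DEX libraries, without overlap. Of the 15 genes lower in batch 1, 11 had a negative value in batch 2 and 14 in its intact libraries, or 73.3% and 93.3%. Among all 2033 genes lower in batch 1, those shares were 62.1% and 77.4%, and 6 of the 15 (40%) and 27.8% of the 2033 were also at an unadjusted p under 0.05 in the intact libraries. For DEX + RU-486, 4 of the 11 genes lower in batch 1 were negative in batch 2 and 6 in its intact libraries (36.4% and 54.5%), against 55.1% and 68.2% of the 1723 genes lower there. In the intact libraries, 3 of the 11 (27.3%) and 11% of the 1723 were negative at an unadjusted p under 0.05.

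The genes higher in DEX in the intact libraries of batch 2 at an unadjusted p under 0.05 were Sv2c (0.41), Stxbp5l (0.33), Pclo (0.30), Rab3c (0.23) and Rims2 (0.23 log2). Sv2c had 10.2, 10.1, 10.05 and 15.4 CPM in DEX and 8.99, 8.12, 7.70 and 10.1 in control there. The lowest DEX and the highest control library met, and the adjusted p was 0.188.

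Between DEX + RU-486 and DEX, 1 of the 35 genes was called in these intact libraries. Sv2b, a second form of the SV2 vesicle protein, was that gene, at 0.51 log2 (adjusted p = 0.041 by edgeR), where 0.747% of tested genes had a higher and 0.811% a lower level, and it is named after its values were seen. It had 16.2, 16.5, 19.8 and 20.3 CPM in DEX, 22.5, 23.6, 26.8 and 30.9 in DEX + RU-486, and 22.9, 21.6, 21.1 and 23.7 in control, so that DEX lay below both other groups. Slc17a7 had 5.19, 6.93, 5.54 and 9.28 CPM in DEX, and 7.54, 9.51, 23.3 and 21.7 in DEX + RU-486. Its difference was 1.21 log2 (SE 0.30), with an adjusted p of 0.0543, and it came mainly from the DEX + RU-486 libraries with RIN 8.7 and 8.5, while the other 2 lay at 7.54 and 9.51. The same pair also had 94.7 and 93.6 CPM of Stx1a, against 60.4 and 65.1 in the other 2, and 123 and 124 CPM of Syt7, against 88.3 and 94.8. By unadjusted p, 11 of the 35 genes exceeded DEX in DEX + RU-486 and 3 were under it, beside 10% and 9.3% of all tested genes. Against control, 0 were called in these intact libraries (0% of all tested genes higher and 0.00491% lower), and 2 were higher and 5 lower by unadjusted p (3.75% and 3.8%). With all 18 libraries of batch 2, Sv2b was not called.

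Markers of other cells also moved in the intact libraries of batch 2. The oligodendrocyte lineage markers summed to 442 to 589 CPM in control, 727 to 1147 in DEX and 152 to 434 in DEX + RU-486, so the 3 groups did not overlap. Astrocyte markers summed to 51.2 to 64.4 CPM in control, 63.5 to 89.8 in DEX and 48.6 to 61.4 in DEX + RU-486, and neuronal markers outside the vesicle cycle to 4444 to 4793, 4224 to 4470 and 4304 to 4714 CPM. The DEX libraries lay above those of DEX + RU-486 for the astrocyte markers, and the neuronal sums overlapped. Postsynaptic genes summed to 2039 to 2175 CPM in control, 1762 to 2008 in DEX and 1873 to 2553 in DEX + RU-486. The DEX libraries lay below control in that sum. Their part in the vesicle gene values was not tested.

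Many of the vesicle genes moved with RNA integrity, as did many of all tested genes. In batch 2, with treatment in the model, 10 of the 35 were higher and 17 lower in the 6 libraries with a RIN under 3, beside 28.4% higher and 26.8% lower among all tested genes. The share that was higher was thus near that of all tested genes. The largest rises were in active zone genes, with Unc13c (a gene with few counts) at 1.42, Bsn at 1.30, Pclo at 1.19 and Rims1 at 0.83 log2, followed by Syn1 at 0.82 and Cplx1 at 0.63. The largest falls were in Slc17a6 (-1.54), Syt1 (-1.33), Syt5 (-1.12), Sv2b (-1.11), Syp (-1.07) and Sv2a (-1.05). Syt1 had 88.1 to 124 CPM in the degraded control libraries and 284 to 330 in the others, and Bsn had 607 to 1184 and 319 to 398, so neither overlapped.

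Of the 15 genes lower in DEX in batch 1, 11 were lower with low RIN, 3 (Rab3a, Stx1a and Slc17a7) were higher, and Dnm1 was not called. Of the other 20, 6 were lower, 7 higher and 7 not called. Across the 35 genes the low-RIN difference of batch 2 and the DEX difference of batch 1 had a Pearson r of 0.385 and a Spearman rho of 0.432, as a description, with no library in common but with all genes of a comparison sharing its libraries. Log2 exon length and the DEX difference of batch 1 had an r of 0.343. The part of RNA integrity in the batch 1 result was not tested beyond these values, the fits without the low-RIN libraries and the fit with RIN as a covariate.

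**Figure D4:**
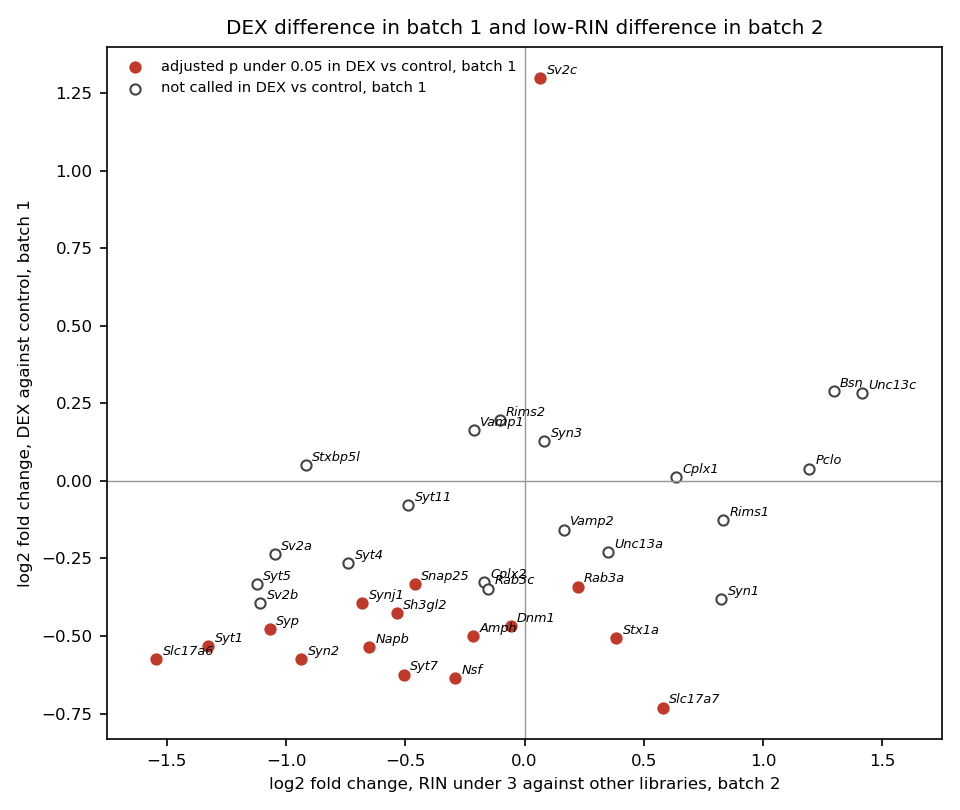
Each gene's log2 fold change in libraries with a RIN under 3 against the others of batch 2 (x axis) and in DEX against control in batch 1 (y axis), with filled points at an adjusted p under 0.05 on the y axis. Stx1a, Slc17a7 and Rab3a lie low on the y axis and to the right, and Bsn, Pclo and Unc13c lie furthest right.

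Over both batches, with batch as a covariate, none of the 35 genes was called in the 3 comparisons by edgeR, beside 0.0147% higher and 0.00983% lower among all tested genes in DEX and 0% in the others. The smallest adjusted p in DEX against control was 0.085, for Amph (log2 fold change -0.34, SE 0.095). At an unadjusted p under 0.05, 8 were lower and 1 (Sv2c, at 0.72) higher, against 10.1% and 6.86% of all tested genes, and DESeq2 called 1 lower and 0 higher at an adjusted p under 0.05, against 1.06% and 1.15%. For DEX + RU-486 against control the counts by unadjusted p were 5 lower (6.63% of all tested genes) and 1 higher (4.19%), against DEX they were 1 lower (1.23%) and 1 higher (1.44%), and DESeq2 called 0 in both. With the 28 libraries of RIN 6 or above, 16 were lower in DEX (11.9% of all tested genes) and 1 higher (7.83%), and 7 were lower in DEX + RU-486 (5.87%). In that fit Syt7 was at -0.47 (SE 0.091, adjusted p = 0.000868), Rab3a at -0.28 (adjusted p = 0.00252), Amph at -0.36 (adjusted p = 0.00466), Snap25 at -0.21 (adjusted p = 0.0248) and Sv2c at 0.74 (adjusted p = 0.0159), while Slc17a7 (-0.51, adjusted p = 0.11) and Synj1 (-0.21, adjusted p = 0.0579) did not pass. Leaving out the control library with a RIN of 1.8 (replicate 20) alone gave 4 lower (Amph, Syt7, Sh3gl2 and Nsf) and 1 higher (Sv2c) in DEX and 1 lower (Amph) in DEX + RU-486, while 7.94% and 2.06% of all tested genes were called in either direction.

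The difference between the batches was tested directly. In none of the 35 genes did the DEX effect differ between batches at an adjusted p under 0.05 (0.133% of all tested genes were positive and 0.0393% negative, where positive is higher in batch 2), by edgeR. At an unadjusted p under 0.05, 7 genes were positive and 1 (Sv2c) negative, against 6.39% and 6.47% of all tested genes. Rab3c had the smallest adjusted p, 0.122, with -0.35 log2 in batch 1 and 0.25 in batch 2, a difference of 0.61 (SE 0.18). Nsf differed by 0.61 and Napb by 0.62 log2.

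Other genes of the vesicle cycle moved with the 35 in batch 1. Of 84 tested, 30 were lower in DEX and 0 higher, with a median of -0.25 log2, and 26 were lower and 0 higher in DEX + RU-486. Among all tested genes, 9.99% were lower and 8.99% higher in DEX, and 8.46% and 6.92% in DEX + RU-486, which are the shares to set beside the counts by role. Of the other vesicle membrane proteins 8 of 17 were lower, including Scamp1 (-0.58), the proton pump subunit Atp6v1a (-0.49), the chaperone Dnajc5 (-0.47) and the transporter Slc17a8, or VGLUT3 (-1.77). Of the other synaptotagmins and calcium sensors 3 of 13 were lower, namely Syt16 (-0.51), Doc2b (-0.88) and Syt9 (-0.70), and Syt17 was at -0.28 and did not pass. Of the other SNARE regulators 5 of 11 were lower, with Stxbp5 at -0.59, Snap47 at -0.36 and Prrt2 at -0.40. Of the other active zone genes 6 of 21 were lower, with Erc1 at -0.44, Erc2 at -0.38 and Nrxn2 at -0.50, and of the other endocytosis genes 8 of 22, with Ap2b1 at -0.52, clathrin heavy chain (Cltc) at -0.46, Snap91 at -0.67 and Picalm at -0.42 log2.

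Markers of other compartments and cell types moved in the same libraries, where 9.99% of all tested genes were lower and 8.99% higher in DEX. In DEX in batch 1, 7 of 13 neuronal markers outside the vesicle cycle were lower and 1 (Nefm) was higher, with a median of -0.32 log2, and 8 of 14 postsynaptic genes were lower, with a median of -0.36. The summed level of the neuronal markers was 5838 to 7126 CPM in control, 4257 to 5011 in DEX and 4529 to 5314 in DEX + RU-486. Of the oligodendrocyte lineage markers 8 of 10 were higher, and their sum was 73.0 to 311 CPM in control, 530 to 2368 in DEX and 241 to 1034 in DEX + RU-486, so the DEX libraries lay above control. Of the astrocyte markers 5 of 10 were higher (39.0 to 54.7 CPM in control and 49.0 to 94.6 in DEX), of the dividing cell markers 3 of 6, and of the vascular and fibroblast markers 1 of 8. Microglial markers were near 0, at 0.248 to 0.947 CPM in control and 0.379 to 1.36 in DEX over 5 genes, with P2ry12, Tmem119, C1qa and C1qb under the filter on low counts. In such bulk libraries, fewer neurons and less vesicle gene mRNA per neuron cannot be told apart, and the part of these cell types in the result was not tested.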

How the data were processed

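RNA was sequenced from 36 culture libraries, 12 per group, in 2 batches. Per the labels the authors used poly(A) selection, HISAT2 2.1.0, Subread 1.5.0-p2 and GRCm38, while the study's methods describe a total RNA library; strand use in counting is not given in the sources used here. The deposited table holds whole-number counts per gene, not normalized, with totals of 12.1 to 82.4 M. The authors' 5 transgene entries (6.22e-06% of counts) were left out, and 55227 identifiers matched GENCODE M21.

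Genes with a mean count above 5 (20355) were tested with edgeR 4.0.16 (quasi-likelihood, TMM, R 4.3.3), within each batch and over both with batch as a covariate. A separate model over both batches, with a mean for each group in each batch, gave the difference between batches. P-values were adjusted after Benjamini and Hochberg across the tested genes, with a threshold of 0.05, and the SE is the log2 fold change divided by the root of F. CPM uses TMM factors over the 36 libraries, and CPM per kb divides by the summed exon length. Alternatives used DESeq2 1.42.0, sva 3.50.0, other scaling, filters, RIN as a covariate, RIN of 6 or above, and each library left out. On simulated counts for batch 1, with 200 genes changed, 95 of 100 genes changed 2-fold and 100 of 100 changed 4-fold were recovered. There were 14 false calls. Recovery of changes under 2-fold was not tested. The 15 genes lower in DEX in batch 1 had log2 fold changes of -0.73 to -0.33.

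The genes and lists were chosen with earlier results of these data known. Values by library are given for genes called in any comparison (the 12 with the smallest p), for Snap25, Syp, Syt1, Syn1, Slc17a6 and Slc17a7, and for the 3 with the largest positive and the 3 with the largest negative log2 fold change in DEX over both batches. Sh3gl2 and Sv2b were added in batch 2 after their values were seen. Other pathway genes were listed by role, and up to 4 per list with the smallest p are named, apart from some genes that are not reported here. Promoters and their motifs came from RefSeq (GRCm38.p6).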

Additional observations from a re-analysis of the deposited data

Results flagged for a closer look

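Among the 17 genes that the rule chose for values by library, 102 groups of 6 libraries were examined and 10 held a library that stood far from the other 5 by Dixon's ratio on log2 CPM. Chance alone gives about 1 in 20 for a single group. The 17 genes share the same libraries, so that rate is no reference for the count of 10. Every one of the 10 was a library with a RIN of 5.6 or below. In batch 1 the DEX library with a RIN of 3.9 was lowest for Nsf (70.28 CPM, with the next at 122.8), Napb (78.24, next 130.0) and Slc17a7 (12.39, next 25.01), and highest for Rims2 (104.3, next 51.25). The DEX + RU-486 library of batch 1 with a RIN of 5.6 was lowest for Napb (78.95, next 122.6) and Syt1 (198.0, next 296.6).

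In batch 2 the low libraries were the control with a RIN of 1.8 for Amph (55.92 CPM, next 81.05), the DEX library with a RIN of 1.4 for Slc17a6 (2.261, next 12.91) and the DEX + RU-486 library with a RIN of 1.5 for Snap25 (100.9, next 139.9). The DEX + RU-486 library with a RIN of 2.1 was highest for Rab3a (152.0, next 121.8).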

How the results depend on the processing

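For DEX against control over both batches, 0 genes were higher and 0 lower. This became 1 and 16 with a RIN of 6 or above (7.83% and 11.9% of all tested genes) and 1 and 8 at an unadjusted p under 0.05 (6.86% and 10.1%). With DESeq2 it became 0 and 1, beside the shares given above. In batch 1, 1 higher and 15 lower became 0 and 1 with RIN as a covariate. Calls over the whole tested set also fell, from 8.99% higher and 9.99% lower to 1% and 1.77%. The 35 genes kept a median of -0.28 log2 in that fit (28 negative), against -0.33 (26 negative) before. Sv2c turned to -0.032 log2 with the covariate. In batch 2, 0 higher became 1 at an unadjusted p under 0.05 (1.12% of all tested genes).

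For DEX + RU-486 against control over both batches, 0 higher and 0 lower became 1 and 5 at an unadjusted p under 0.05 (4.19% and 6.63% of all tested genes). With a RIN of 6 or above 7 were lower (5.87%). In batch 1, 0 higher became 1 with DESeq2 (10.8% of all tested genes) and 4 at an unadjusted p under 0.05 (15.2%). The 11 lower became 1 with RIN as a covariate, 6 with a RIN of 6 or above and 7 with upper-quartile scaling. Of all tested genes, 1.79%, 7.1% and 5.58% were lower in these fits. In the same order, the medians of the 35 genes were -0.23, -0.22 and -0.23 log2, against -0.31 before. For DEX + RU-486 against DEX, 0 higher and 0 lower over both batches became 1 and 1 at an unadjusted p under 0.05 (1.44% and 1.23% of all tested genes). In batch 2, 0 higher became 1 with a RIN of 6 or above (0.747%), and 0 lower became 2 at an unadjusted p under 0.05 (1.05%). The causes were not tested.

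Leaving out each library in turn gave 0 to 1 higher and 0 to 4 lower in DEX over both batches (4 without control replicate 20). In batch 1 it gave 0 to 1 higher and 9 to 17 lower (9 without DEX replicate 12 and 17 without DEX + RU-486 replicate 18). Of all tested genes, 7.94%, 14.9% and 22.4% were called in either direction in these fits, in that order. For DEX + RU-486 against control it gave 0 to 1 lower over both batches (1 without control replicate 20, with 2.06% of all tested genes called). In batch 1 it gave 4 to 14 lower. There were 4 without control replicate 2, DEX + RU-486 replicate 15 or replicate 18, 5 without replicate 17, and 14 without replicate 13 or 14. Of all tested genes, 9.07%, 10.9%, 9.44%, 11.7%, 15.2% and 18.8% were called in either direction in these batch 1 fits, in that order. The other counts stayed at 0. Upper-quartile scaling moved the median of all genes in batch 1 by less than 0.1 log2.

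No paired analysis was possible because the replicate numbers run from 1 to 36 and no number occurs in more than 1 group. Lower depth in the treated libraries of batch 1, and 4 intact libraries per group in batch 2, limit the precision.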
